A study of Mus musculus with 2 samples.

Results

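Vwf-positive liver sinusoidal endothelial cells were the cell barcodes that carried a Vwf transcript and lay within the limits set on genes of the large liver vessels. A barcode was a member when it had at least 1500 UMIs (unique molecular identifiers, 1 per captured transcript) and 750 genes, at least 2 UMIs of Pecam1, Cdh5 and Ptprb together, and none of Ptprc, Adgre1, Cd79a or Dcn. It also had at least 1 Vwf UMI, at most 2 Rspo3 UMIs, none of Selp, Gja5 or Fbln2, and none of Mki67 or Top2a. The rule was met by 515 of 12755 barcodes, 53 in the control and 462 in the knockout library. The UMIs of these genes chose the members and are given only as a description.

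LSECs were isolated from mouse liver with anti-CD146 beads and measured by droplet-based 3′ single-cell RNA sequencing, with 1 library per genotype and the livers of 3 mice pooled in each. Control mice were littermates without Cre (Clec4g-iCre wt/wt with Maf fl/fl or Maf fl/wt, labelled WT). Maf LSEC-KO mice, whose library is also called the knockout library, carried Clec4g-iCre tg/wt and Maf fl/fl, so that Maf, which encodes the transcription factor c-Maf, was deleted in cells that had expressed Clec4g. The age and sex of the pooled mice are not given in the labels, and the mice of a pool cannot be told apart. As 1 library per genotype gives no replicates, no test between genotypes was possible. All intervals are exact at the 95% level, cover counting error only and say nothing of the spread between mice.

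Von Willebrand factor is a large multimeric glycoprotein that binds platelets and carries coagulation factor VIII in plasma. Endothelial cells store it in Weibel-Palade bodies, elongated secretory granules that also hold P-selectin, angiopoietin-2 and other proteins and are released on activation. It is used as a marker of arteries, veins and the endothelium of continuous capillaries, whereas the fenestrated endothelium of liver sinusoids normally holds little of it. Vwf in sinusoids is a common sign of capillarization, the loss of fenestrated identity in diseased liver. Vwf (ENSMUSG00000001930) lies on chromosome 6 of mm10, from 125546774 to 125686679 on the plus strand.

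The control library held 47681895 UMIs in 5664 barcodes and the knockout library 89872764 UMIs in 7091 barcodes. Endothelial barcodes numbered 4306 and 4052, with medians of 8588.5 and 14229 UMIs. A barcode sequence was shared between the libraries in 10 cases among all barcodes, in 4 among endothelial barcodes and in 0 among members. Members had a median of 10314 UMIs in the control and 13440 UMIs in the knockout library, against 8211.5 and 11898 UMIs in sinusoidal barcodes without Vwf. Vwf detection was therefore also read at equal depth.

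The deletion was visible in the members. Maf was at 3194 CPM in control members (CPM, the summed UMIs of a gene scaled to a fixed total that leaves out mitochondrial and ribosomal protein genes) and at 45.5 CPM in Maf LSEC-KO members, a log2 ratio of -6.13 (-6.33 to -5.94). A Maf UMI was found in 52 of 53 control members and in 77 of 462 Maf LSEC-KO members, which is 16.7%, and at least 2 Maf UMIs were left in 4.76%.

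The members were checked against the defining markers of sinusoidal endothelium. Clec4g, a C-type lectin of LSECs and the driver of Cre, was found in 53 of 53 control members and in 447 of 462 Maf LSEC-KO members, at 2714 and 1414 CPM. In leukocyte barcodes, which should lack it and so show the free RNA of the droplets, Clec4g was at 111 CPM in the control and at 140 CPM in the knockout library. The leukocyte barcodes were chosen to hold no UMI of Cdh5 or Ptprb, which may make their free endothelial RNA read too low. Pecam1, the endothelial adhesion molecule CD31, was found in 52 and 451 members. Stab2, a scavenger receptor of sinusoids, was found in 52 of 53 control members at 1327 CPM, but in 226 of 462 Maf LSEC-KO members at 138.4 CPM. Leukocyte barcodes held Stab2 at 120 CPM in the control and at 46.5 CPM in the Maf LSEC-KO library, so that Maf LSEC-KO members were above this level by less than control members.

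Vwf was detected far more often in sinusoidal barcodes of the Maf LSEC-KO library. Members made up 1.23% (0.923 to 1.61) of endothelial barcodes in the control and 11.4% (10.4 to 12.4) in the Maf LSEC-KO library. Among sinusoidal barcodes only, those within the Rspo3, large-vessel and cycle limits, 53 of 3793 had a Vwf UMI in the control, which is 1.40% (1.05 to 1.82), against 462 of 2315, which is 19.96% (18.3 to 21.6). After each barcode was thinned at random to 2700 UMIs, the shares were 0.499% (17 of 3408) and 9.77% (212 of 2170). Here only Vwf was read from the thinned UMIs, and the other limits from all UMIs. Members were then 0.436% and 5.48% of endothelial barcodes. With every limit on thinned UMIs they were 0.513% (0.313 to 0.790) and 7.99% (7.16 to 8.89). Thinning left out 404 control and 185 Maf LSEC-KO endothelial barcodes that were shallower. The intervals of both libraries did not overlap before or after thinning.

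The difference was present at every depth. In control barcodes the share with a Vwf UMI lay between 0.423% and 2.32% over 5 depth classes, with no order by depth. In Maf LSEC-KO barcodes it was lowest, at 9.66%, from 1500 to 3000 UMIs and highest, at 27.7%, above 24000 UMIs. Leukocyte barcodes, again those without a Cdh5 or Ptprb UMI, held few Vwf UMIs, a level that this choice may lower. None of 62 control leukocyte barcodes carried Vwf, which allows a share of up to 4.84%, and 3 of 156 did in the Maf LSEC-KO library, which is 1.92% (0.398 to 5.52), at median depths of 3863 and 4017.5 UMIs. Thinned to 2700 UMIs, 0 of 48 and 1 of 115 leukocyte barcodes held Vwf, the latter 0.870% (0.0220 to 4.75), against 9.77% of Maf LSEC-KO sinusoidal barcodes at the same depth. The control share of 1.40% lies below the share that the count of 0 allows, so that free RNA as a source of single Vwf UMIs in the control was not resolved at this depth, whereas the Maf LSEC-KO share lies above the leukocyte interval.

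**Figure D1:**
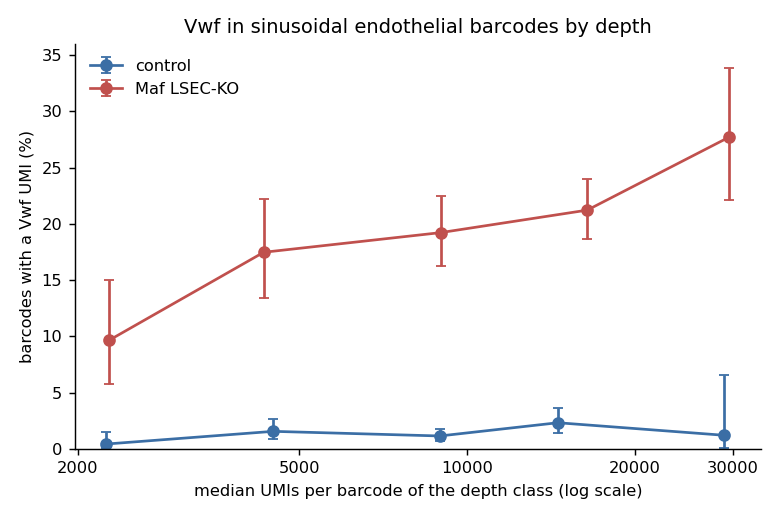
Share of sinusoidal endothelial barcodes with at least 1 Vwf UMI (percent) against the median UMIs of 5 depth classes on a log axis, for the control (blue) and the Maf LSEC-KO library (red). Points are shares and bars exact 95% binomial intervals for counting error. The control points lie between 0.423% and 2.32%, and the Maf LSEC-KO points between 9.66% and 27.7%.

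The members differed in how much Vwf each one held. In the control, 48 of 53 members had a single Vwf UMI, 3 had 2, and 2 had more, with 5 as the highest. In the Maf LSEC-KO library 223 members had 1 Vwf UMI, 65 had 2, 133 had 3 to 9 and 41 had 10 or more, with 24 as the highest. Barcodes with at least 2 Vwf UMIs held 85.8% of the 1567 Vwf UMIs of Maf LSEC-KO members, and 22.6% of the 62 Vwf UMIs of control members. Summed Vwf was at 125 CPM in control and 280.5 CPM in Maf LSEC-KO members. Behind all CPM values stand 495887 UMIs of control members and 5586406 of Maf LSEC-KO members.

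Most Vwf-positive endothelial barcodes were outside the rule. In the control 96 barcodes with Vwf were left out, 93 of them for Selp, Gja5 or Fbln2 and 52 for Rspo3. In the knockout library, 621 were left out, 387 for Selp, Gja5 or Fbln2, 134 for Rspo3 and 337 for Mki67 or Top2a, with 227 left out for a cycle gene alone. Just outside the rule, 3 control and 53 Maf LSEC-KO barcodes failed it by a single UMI of Selp, Gja5 or Fbln2. Just inside, 1 Maf LSEC-KO member had 2 Rspo3 UMIs and 0 barcodes of either library failed only by having 3 Rspo3 UMIs.

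Which genes differed with Vwf inside a library was examined by pairing each member with a sinusoidal barcode of the same library that had 0 Vwf UMIs and a total within 10% of its own. All 53 control members and 461 of 462 Maf LSEC-KO members found such a partner. A gene was counted when it reached 50 CPM on either side, and called when it differed by at least 2-fold. In the control 86 of 4297 genes were higher in Vwf-positive barcodes, a percent called of 2, and 30 were lower, 0.698. In the knockout library 18 of 4216 were higher, 0.427, and 9 were lower, 0.213. The median log2 ratio over all genes counted was 0.00 for control pairs and -0.01 for Maf LSEC-KO pairs, and 50% and 46.1% of genes were higher at any size. The control list was sensitive to the partners, since 38 genes were higher and 10 lower against all 3740 Vwf-negative barcodes.

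A small group of genes was higher in Vwf-positive barcodes of both genotypes. The 10 genes past 2-fold in both libraries were Adgrg6, Atp13a3, Ednrb, Igfbp5, Insr, Jag1, Mbd4, Plac8, Slc45a4 and Vegfc, which are 11.6% of the control list and 55.6% of the Maf LSEC-KO list. None was past 2-fold lower in both and none was past 2-fold in opposite directions. Of the 18 Maf LSEC-KO genes 11 also reached 50 CPM in the control pairs. With the low ones included, 16 were higher there at some size, and the other 2 were Acta2 and Ccl21a. Members of both libraries were chosen by the same gene, and no test was made of this overlap.

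Jag1, a membrane ligand of Notch receptors, was at 92.8 CPM in control members against 3.99 CPM in their partners, and at 56.8 CPM against 17.3 CPM in the Maf LSEC-KO library. These are log2 ratios of 4.54 (2.60 to 7.63) and 1.71 (1.37 to 2.06). Jag1 (ENSMUSG00000027276) was found in 19 of 53 control members and in 2 of their 53 partners.

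Vegfc, the growth factor that acts on the receptor Flt4, had the same direction in both libraries. It was at 103 against 5.99 CPM in the control, a log2 ratio of 4.10 (2.47 to 6.43), and at 172 CPM in Maf LSEC-KO members against 59.7 CPM in Vwf-negative barcodes, a log2 ratio of 1.53 (1.34 to 1.71). In both libraries the level of the members was above the upper bound of the interval of their partners.

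Adgrg6, an adhesion G-protein-coupled receptor that binds collagen IV, was at 244 CPM in control members and 19.96 CPM in their partners. With Maf deleted it was at 317 and 125 CPM. The log2 ratios were 3.61 (2.68 to 4.71) and 1.35 (1.22 to 1.48). A UMI was found in 22 of 53 control members and 4 of their partners, and in 65.3% of Maf LSEC-KO members and 39.9% of theirs.

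Ednrb, the endothelin receptor type B, was at 421 against 45.9 CPM in the control and at 196 against 78.1 CPM in the Maf LSEC-KO library, log2 ratios of 3.20 (2.57 to 3.89) and 1.33 (1.16 to 1.49). The control value came from 14 of 53 members, and 1 barcode held 21.5% of it. Igfbp5, a secreted binding protein of insulin-like growth factors, was found in 8 of 53 control members at 113 CPM and in 0 of their 53 partners. Against the limit of 3 counts over the partners this is a log2 ratio of at least 4.24. In the knockout library Igfbp5 was at 184 CPM against 35.2 CPM, a log2 ratio of 2.38 (2.16 to 2.61), which was 0.80 among the 97 pairs without any UMI of other cell types' markers.

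The other shared genes had smaller ratios or fewer members behind them. Insr, the insulin receptor, had log2 ratios of 1.88 (1.30 to 2.50) in the control and 1.07 (0.91 to 1.24) in the Maf LSEC-KO library. Mbd4, a DNA glycosylase, had 1.53 and 1.26, and Plac8 had 1.30 and 1.18. Atp13a3, a polyamine transporter, had 4.34 and 1.47, and Slc45a4, a solute carrier, had 2.82 and 1.21. The control value of Atp13a3 came from 12 members, of which 1 held 31.7% of its UMIs. Without barcodes that held any UMI of other cell types' markers, Plac8 in the control changed sign, to -0.34, with 24 barcodes on each side.

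**Figure D2:**
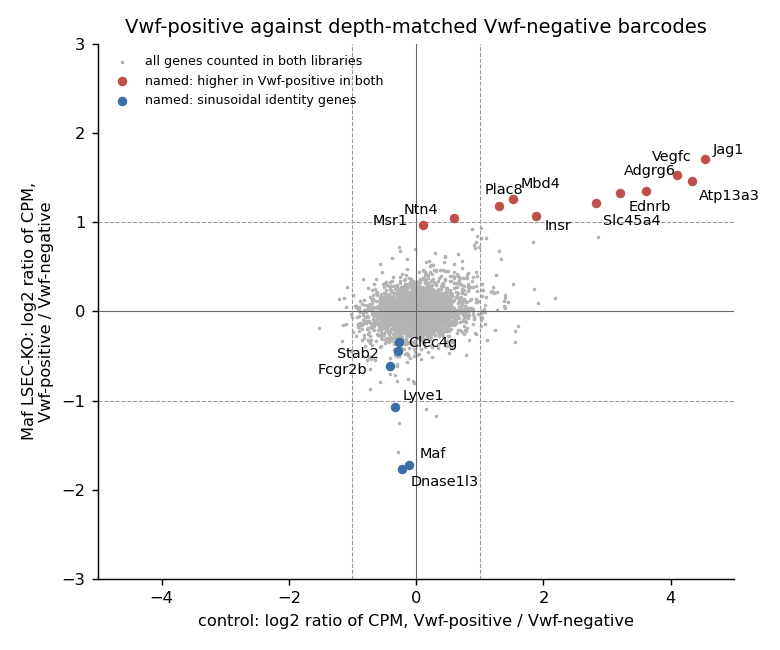
Log2 ratio of CPM between Vwf-positive and depth-matched Vwf-negative sinusoidal barcodes of the control (x axis) and of Maf LSEC-KO (y axis), 1 point per gene that reached 50 CPM in both libraries. Dashed lines mark 2-fold. Red points are named genes with a positive log2 ratio in both libraries, though the control interval of Msr1 includes no difference. Blue points are genes of sinusoidal identity. Jag1, Vegfc, Adgrg6, Ednrb, Atp13a3 and Slc45a4 lie apart at the upper right, and Maf, Dnase1l3 and Lyve1 lie low on the y axis only. Igfbp5 is not drawn, because its control partners had no UMI and its ratio there is only a lower bound.

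Several of the shared genes were often found in the same barcodes. Of the 5 genes Jag1, Vegfc, Adgrg6, Ednrb and Igfbp5, at least 3 were found together in 17 of 53 control members, which is 32.1% (19.9 to 46.3), and in 1 of 53 partners. In the knockout library, at least 3 were found in 190 of 462 members, which is 41.1% (36.6 to 45.8), and in 65 of 461 partners, which is 14.1% (11.1 to 17.6). None of the 5 was found in 26 control members and in 67 Maf LSEC-KO members, so that 49.1% and 14.5% of members carried Vwf without any of them. These 5 genes were chosen after their ratios were known.

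Genes of the portal side of the sinusoid were mostly higher with Vwf in the Maf LSEC-KO library, and less clearly so in the control. All 8 periportal genes were counted in both. In the Maf LSEC-KO library 5 had an interval above 0, 1, Adam23, had one below 0, and 1, Ntn4, was past 2-fold. In the control 1, Ntn4, had an interval above 0 and 1, Itga9, had one below 0, while 7 of 8 ratios were above 1. Their median log2 ratio was 0.16 for control and 0.46 for Maf LSEC-KO barcodes. Ntn4, which encodes the matrix protein netrin-4, was at 619 against 411 CPM in the control and at 350 against 169 CPM in the knockout library, log2 ratios of 0.59 (0.33 to 0.85) and 1.05 (0.94 to 1.17). Msr1, a scavenger receptor, had log2 ratios of 0.11 (-0.15 to 0.37) and 0.97 (0.82 to 1.12), with an interval that includes 0 in the control. Ltbp4, which binds latent TGF-β in the matrix, had 0.21 and 0.57, and the arterial ligand Efnb2 had 0.11 and 0.47.

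Arterial and portal vein genes, a list that shares Efnb2, Dll4 and Ltbp4 with the periportal one and holds Jag1 and Vegfc, had the same direction. In the control 7 of 12 were counted, all 7 were higher and 3 were past 2-fold, and in the Maf LSEC-KO library 8 of 9 were higher and 2 were past 2-fold. Gja4, the gap junction protein connexin 37, had log2 ratios of 0.95 (0.43 to 1.49) and 0.84 (0.70 to 0.99). The Notch ligand Dll4 had 0.45 in each library. The member of this list that was lower was Clu, which encodes the chaperone clusterin, at 142 CPM in Maf LSEC-KO members against 369 CPM in Vwf-negative barcodes. For Clu the log2 ratio was -1.38, but -0.08 without barcodes that held other cell types' markers.

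Pericentral genes were mostly higher with Vwf in the control, and too few were counted in the Maf LSEC-KO library for a common direction. In the control 4 of 5 counted pericentral genes were higher, 3 with an interval above 0, and 1 was past 2-fold. Their median log2 ratio there was 0.66, above the 0.16 of the periportal genes. In the Maf LSEC-KO library 2 were counted, with 1, Fabp4, higher and 1, Kit, lower. The summed log2 ratio of the list was 0.62 (0.49 to 0.75) in the control and 0.37 (0.34 to 0.41) in the Maf LSEC-KO library. The latter sum, 2684 CPM in members, was mostly Fabp4. Fabp4 had log2 ratios of 0.80 and 0.40. Wnt2, a ligand made around the central vein, was at 252 against 228 CPM in the control and at 25.1 against 31.3 CPM in the Maf LSEC-KO library, with intervals of the log2 ratio that include 0 in both. Kit, the receptor of stem cell factor, had -0.04 (-0.40 to 0.32) and -0.80 (-1.06 to -0.55). Cdh13, a cadherin, had 0.66 (0.15 to 1.19) and 0.24 (-0.38 to 0.87). Thbd, the anticoagulant receptor thrombomodulin, had 1.08 (0.47 to 1.70) and 0.95 (0.63 to 1.28). Vein and venule genes, a list that also holds Thbd, were mostly higher too. In the control 6 of 8 counted were higher, 2 past 2-fold and 3 with an interval above 0. The other 2 were lower, 1 with an interval below 0 and 1, Ackr1, past 2-fold. In the Maf LSEC-KO library 5 of 6 were higher, 4 with an interval above 0. Their median log2 ratios were 0.14 and 0.17.

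Detection of Vwf differed with the UMIs of zonal genes when barcodes were read at 1 depth. Among Maf LSEC-KO sinusoidal barcodes thinned to 2700 UMIs, Vwf was found in 3.90% (2.49 to 5.80) of those with 1 or 2 UMIs of the 8 periportal genes, in 7.39% (5.25 to 10.0) with 3 or 4, and in 15.4% (13.1 to 17.9) with 5 or more. The 151 barcodes with no periportal UMI had 5.96% (2.76 to 11.01), which overlapped the neighbouring class. In the control the same classes held 0 of 381, 0.329% and 0.630%, from 17 Vwf-positive barcodes in all. Pericentral genes gave a difference of the same direction in the Maf LSEC-KO library, with Vwf in 4.27% (2.23 to 7.34) of barcodes without a UMI of them and in 10.6% (9.24 to 12.1) of those with 1 or more. Barcodes with more periportal than pericentral UMIs held Vwf in 11.3% (9.45 to 13.3) and those with more pericentral UMIs in 9.13% (7.35 to 11.2), intervals that overlap. Of the 8 pericentral genes only Fabp4 and Kit reached 50 CPM among the Maf LSEC-KO pairs, and most pericentral UMIs were of Fabp4. The classes by pericentral UMIs thus rest mainly on 1 gene.

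Sinusoidal identity genes were lower by small amounts in Vwf-positive barcodes. In the control 15 of 16 were lower, 14 with an interval below 0, and 0 were past 2-fold, with a median log2 ratio of -0.23. In the knockout library 11 of 16 had an interval below 0 and 3 were past 2-fold, with a median of -0.18. Those past 2-fold were Lyve1, Dnase1l3 and Maf. The interval lay above 0 for Il6st, the gp130 subunit of the interleukin-6 receptor, in both libraries (0.27 and 0.18), and for F8 in the Maf LSEC-KO library (0.06). Mrc1, Gpr182 and Gata4, at -0.03, -0.02 and 0.00 there, took the opposite sign with all genes in the total. Lyve1, a hyaluronan receptor of midzonal and pericentral sinusoids, was at 182 CPM in Maf LSEC-KO members and 383 CPM in Vwf-negative barcodes, a log2 ratio of -1.07 (-1.18 to -0.96), against -0.33 (-0.57 to -0.09) in the control. Clec4g differed by -0.26 and -0.34, and Stab2 by -0.29 and -0.44.

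These ratios were also taken without barcodes that still held a Maf UMI. Dnase1l3, an endonuclease of LSECs, was at 40.8 CPM in members and 140 CPM in Vwf-negative barcodes of the Maf LSEC-KO library, a log2 ratio of -1.77 (-1.99 to -1.56). Without barcodes that had a Maf UMI, the ratio of Dnase1l3 was -0.81 and that of Stab2 was -0.02. For Lyve1 it was -1.33, so that its difference was as large without them.

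Genes of continuous capillaries had no common direction with Vwf among Maf LSEC-KO barcodes, though Cd9 and Plvap were higher. Of 10 counted genes 6 were higher and 4 lower, with a median log2 ratio of 0.01. The interval lay above 0 for 3 and below 0 for 2. Past 2-fold were 0 of them, but also only 0.427% (higher) and 0.213% (lower) of all genes. Cd34, a sialomucin of capillary endothelium, was at 361 CPM in members and 382 CPM in their partners, and Ly6c1 was at 630 against 629 CPM. Cd9, a tetraspanin, had a log2 ratio of 0.72 (0.64 to 0.81), and Plvap, the protein of fenestral diaphragms, had 0.65 (0.56 to 0.73). Both were also higher in the control, by 0.99 and 0.65.

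**Figure D3:**
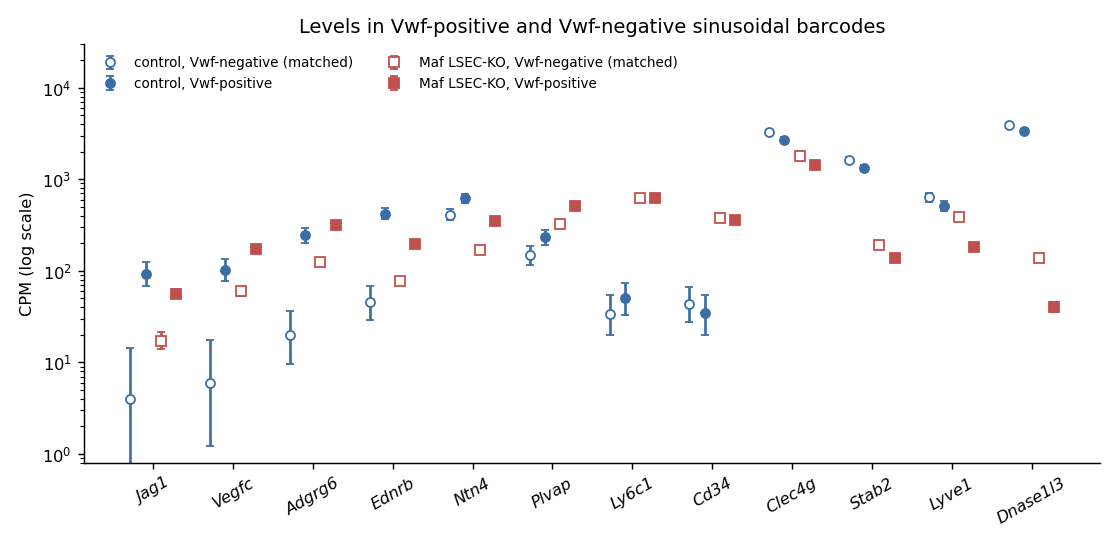
CPM on a log axis of 12 named genes in Vwf-negative (open) and Vwf-positive (filled) sinusoidal barcodes of the control (blue circles) and the Maf LSEC-KO library (red squares), with exact 95% Poisson intervals for counting error. Bars that reach the lower edge go on below it. Jag1, Vegfc, Adgrg6 and Ednrb are higher in filled than in open symbols of both libraries, whereas the intervals of Cd34 and Ly6c1 overlap within a library.

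Weibel-Palade cargo genes gave no common direction, and most traffic genes were slightly lower with Vwf. Of 10 cargo genes 4 were counted in the control and 5 in the knockout library, with 2 and 3 of them higher and 1 past 2-fold in each, higher in the control and lower in the knockout library. Of 16 genes of granule formation and traffic 7 and 5 were counted, of which 6 and 4 were lower and 0 past 2-fold. An interval lay below 0 for 0 of them in the control and for 1, Rap1a (-0.24), in the Maf LSEC-KO library. Their summed log2 ratio was -0.15 (-0.34 to 0.04) and -0.12 (-0.18 to -0.07). Angpt2, the Tie2 ligand stored with Vwf, was at 15.7 CPM in Maf LSEC-KO members and 21.4 CPM in Vwf-negative barcodes. Rab27a, a small GTPase of Weibel-Palade bodies, was at 46.6 against 30.6 CPM there, a log2 ratio of 0.61 (0.32 to 0.90) below the 50 CPM needed to be counted, and at 50.4 against 65.9 CPM in the control. Plat, the tissue plasminogen activator, was at 29.3 against 10.4 CPM in the Maf LSEC-KO library, a log2 ratio of 1.49 (1.04 to 1.95), also below that minimum. Edn1, the vasoconstrictor endothelin-1, had 0.89 (0.62 to 1.17).

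Coagulation genes were mixed, whereas Klf4 and Klf2 were higher. Of the 10 immediate early and heat shock genes counted, 7 were higher in control members, 3 of them with an interval above 0. In Maf LSEC-KO members all 10 were higher, 9 with an interval above 0. In both libraries 0 of these genes were past 2-fold, and their summed log2 ratios were 0.16 (0.002 to 0.31) and 0.24 (0.21 to 0.27). F8, the cofactor that Vwf carries in plasma, was at 848 CPM in Maf LSEC-KO members and 814 CPM in their partners, and at 1801 against 1823 CPM in the control. Klf4 had log2 ratios of 0.73 (0.25 to 1.21) and 0.57 (0.45 to 0.68), and Klf2 had 0.38 and 0.29. Of the endothelial transcription factors counted, 10 of 10 were higher in Maf LSEC-KO members, but 0 past 2-fold and with a median of 0.12. In the control 6 of 11 were higher.

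Among Maf LSEC-KO barcodes several of these genes were higher the more Vwf UMIs a barcode held. The step from 0 Vwf UMIs repeats the comparison of members with Vwf-negative barcodes, in which these genes already differed. Vegfc was at 62.8 CPM with 0 Vwf UMIs, 102.5 with 1, 200.4 with 2, 206.2 with 3 to 9 and 344.3 with 10 or more. Ntn4 went from 180.1 CPM to 705.6 CPM over the same classes, Adgrg6 from 130.1 to 576.7, and Jag1 from 18.7 to 108.6. Efnb2 went from 218.6 to 505.5 CPM. Adgrg6 was at 390.3 CPM with 2 and 389.1 CPM with 3 to 9 Vwf UMIs, and Ednrb had no steady order, at 81.9 CPM with no Vwf and 159 CPM in the highest class. Median depths of the 4 classes with Vwf were 13156, 12960, 14080 and 13941 UMIs, and 11898 UMIs with no Vwf.

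Lyve1 had the opposite order, at 365.2, 255.1, 146.4, 120.2 and 83.1 CPM. Clec4g was at 1742 CPM with no Vwf and 1140 CPM with 10 or more Vwf UMIs, and Maf was at 183.7 and 6.8 CPM. Cd34 was at 377.2 and 296.8 CPM with no steady order between. Among barcodes with 0 Maf UMIs the order was kept, with Vegfc at 67.3 and 384.5 CPM and Lyve1 at 321.3 and 33.4 CPM in the first and the last class. Dnase1l3 was at 9.3 and 4.2 CPM there, both low.

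**Figure D4:**
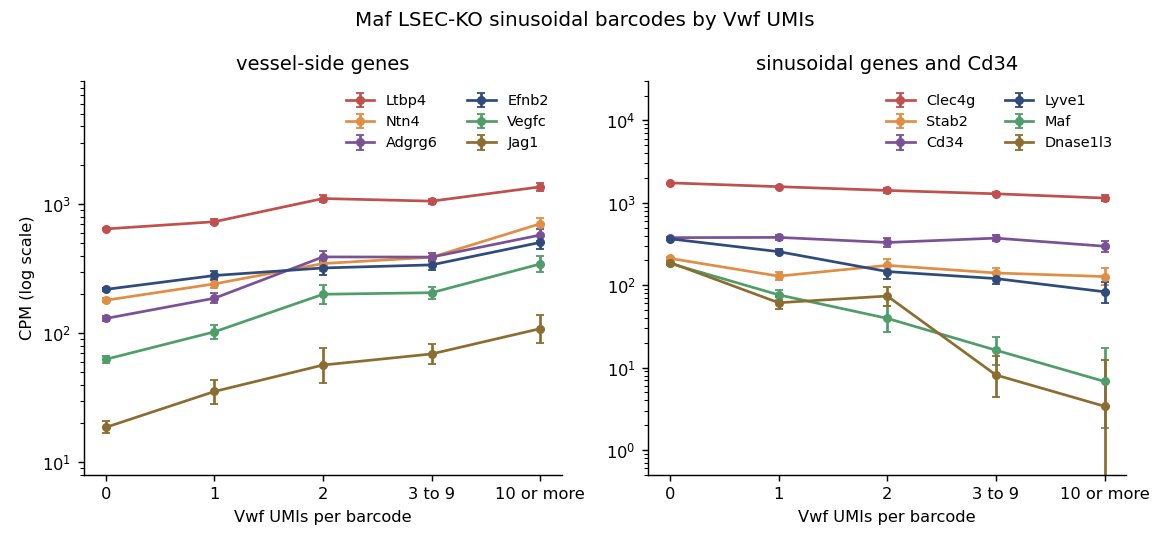
CPM on a log axis in Maf LSEC-KO sinusoidal barcodes with 0, 1, 2, 3 to 9 and 10 or more Vwf UMIs, for 6 genes of the vessel side (left) and for 5 sinusoidal genes and Cd34 (right), with exact 95% Poisson intervals for counting error. A bar that reaches the lower edge goes on below it. Vegfc goes from 62.8 to 344.3 CPM and Jag1 from 18.7 to 108.6 CPM, whereas Lyve1 goes from 365.2 to 83.1 CPM.

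Vwf detection within the Maf LSEC-KO library was lower where Maf was kept. Among its sinusoidal barcodes Vwf was found in 21.0% (19.1 to 22.9) of 1836 with 0 Maf UMIs, in 24.0% (18.6 to 30.1) of 229 with 1 and in 8.80% (5.60 to 13.0) of 250 with at least 2. After thinning to 2700 UMIs these were 10.4%, 12.0% and 3.02%. The first and second class overlapped in their intervals, and the third lay below both. In the 161 barcodes with at least 5 Maf UMIs, 8 had Vwf, which is 4.97% (2.17 to 9.56), above the control share of 1.40%. Thinned, this was 2.55% (0.698 to 6.39), whose interval overlaps that of the thinned control share, 0.499% (0.291 to 0.797). The part of free RNA in these Maf UMIs was not tested.

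**Figure D5:**
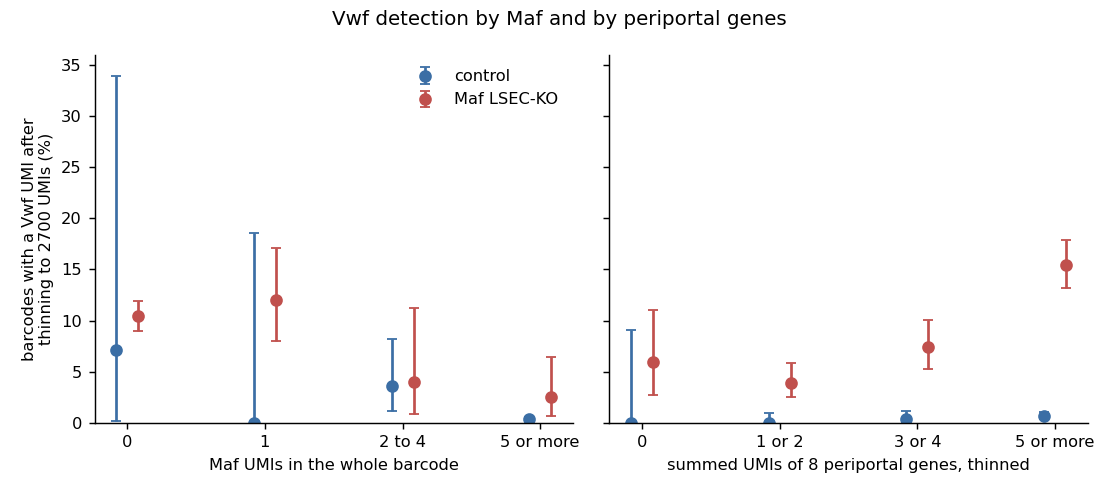
Share of sinusoidal barcodes with a Vwf UMI after thinning to 2700 UMIs (percent), by the Maf UMIs of the whole barcode (left) and by the thinned UMIs of 8 periportal genes (right), for the control (blue) and the Maf LSEC-KO library (red), with exact 95% binomial intervals. Maf LSEC-KO shares are 10.4% with 0 Maf UMIs and 15.4% with 5 or more periportal UMIs. The control class with 0 Maf UMIs holds 14 barcodes.

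Between genotypes the share of genes past 2-fold was similar in members and in sinusoidal barcodes without Vwf. Of 4503 genes counted, 285 were at least 2-fold higher in Maf LSEC-KO members, a percent called of 6.33, and 250 were lower, 5.55. In sinusoidal barcodes without Vwf the same was 271 of 4408 higher, 6.15, and 219 lower, 4.97. At any size 55.3% of genes were higher in Maf LSEC-KO members. The median log2 ratio over all genes counted was 0.07 in members and 0.09 in Vwf-negative barcodes. Leaving all genes in the total moved every ratio of the members by -0.14, the median to -0.07 and the counts to 199 higher and 308 lower. These comparisons share no barcodes, but both rest on the same pair of libraries. The sets differ in size, with 53 control and 462 Maf LSEC-KO members against 3740 and 1853 Vwf-negative barcodes. Counting error therefore weighs more on the shares of the members.

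Sinusoidal identity was lower in Maf LSEC-KO barcodes with and without Vwf. Of the 16 identity genes 11 were past 2-fold lower and 0 higher, and their summed level was 28882 CPM in control and 9337 CPM in Maf LSEC-KO members. In Vwf-negative barcodes 12 of 16 were past 2-fold lower, with sums of 32534 and 10985 CPM. In the members Dnase1l3 was at 3348 against 40.5 CPM, a log2 ratio of -6.37 (-6.58 to -6.17). The inhibitory Fc receptor Fcgr2b was at 2077 against 161 CPM, and the protease Dpp4 at 680 against 53.5 CPM. Oit3 and Gata4 differed least, with log2 ratios of 0.13 and -0.07, and Oit3 was at -0.01 with all genes in the total.

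Capillary and basement membrane genes were higher. All 10 capillary genes counted were higher in Maf LSEC-KO members, also with all genes in the total, and 5 were past 2-fold, against 6 of 10 in Vwf-negative barcodes. Ly6c1 was at 50.4 against 630 CPM and Cd34 at 34.3 against 362 CPM, log2 ratios of 3.64 and 3.40. Of the 7 basement membrane genes counted 6 had an interval above 0 and 3 were past 2-fold, among them the collagen IV chains Col4a1 (1.004) and Col4a2 (1.13). Among genes counted, the largest ratio with a UMI on both sides was that of Pcp4l1, at 2.02 against 723 CPM with 1 UMI in control members.

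Pericentral genes included several past 2-fold lower in the Maf LSEC-KO members. Cdh13 was at 167 CPM in control and 8.95 CPM in Maf LSEC-KO members, Wnt2 at 252 against 24.9 CPM and Kit at 266 against 36.3 CPM. Of the 5 pericentral genes counted 4 were past 2-fold lower, and 1, Fabp4, was higher with an interval above 0. The summed level of the pericentral list was 2616 CPM in control and 2678 CPM in Maf LSEC-KO members, a log2 ratio of 0.03 (-0.05 to 0.12). Of the 8 periportal genes 3 were past 2-fold lower. Of the immediate early and heat shock genes 9 of 10 were past 2-fold higher, with a summed level of 1430 CPM in control and 4666 CPM in Maf LSEC-KO members and a summed log2 ratio of 1.71 in members and 1.45 in Vwf-negative barcodes. These genes also respond to tissue digestion, and their part in the other differences between the libraries was not tested.

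For the genes that were higher with Vwf in both libraries, the values of both genotype comparisons are given side by side, and the difference between them was not tested. These genes were chosen for being past 2-fold higher in members than in partners of both libraries, with 53 pairs in the control. Choosing genes that are high in control members can by itself lower the genotype ratio of members relative to that of Vwf-negative barcodes. Adgrg6 differed between genotypes by a log2 ratio of 0.38 (0.12 to 0.66) in members and 2.55 (2.43 to 2.68) in Vwf-negative barcodes. For Vegfc these were 0.75 (0.35 to 1.19) and 2.40 (2.22 to 2.57). Ednrb and Jag1 were lower in Maf LSEC-KO members, by -1.10 and -0.72, but higher in Vwf-negative barcodes, by 1.41 and 0.59. Without barcodes that held other cell types' markers the ratio in members was -0.07 for Ednrb and -0.37 for Jag1. Atp13a3 had -1.22 in members and 1.98 in Vwf-negative barcodes, Mbd4 -1.08 and -0.52, and Insr -0.45 and 0.13, where the ratio of Insr was 0.38 once members were matched on UMIs between libraries. Igfbp5 had 0.69 and 1.66, Slc45a4 0.06 and 1.21, and Plac8 0.22 and 1.13, with an interval that includes 0 in members for Slc45a4 and Plac8. With no limit on large-vessel and cycle genes the ratio between all Vwf-positive barcodes was -0.56 for Adgrg6, -0.95 for Igfbp5 and 0.11 for Vegfc.

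Set beside the Vwf-positive barcodes that the rule left out, members lay between 2 sets in Adgrg6 and Vegfc. Barcodes with Rspo3, a Wnt-enhancing ligand of the central vein, numbered 50 in the control and 103 in the knockout library when cycling ones were left out. They held Adgrg6 at 5.7 and 90.7 CPM and Vegfc at 1.9 and 29.9 CPM, below the members, but Cdh13 at 851 and 554.9 CPM and Wnt2 at 833.8 and 495.9 CPM, above the members. Barcodes with Selp, Gja5 or Fbln2 within the other limits numbered 42 and 181. They held Adgrg6 at 1158 and 673.1 CPM, Vegfc at 414.2 and 419.0 CPM and Jag1 at 416.2 and 176.2 CPM, all above the members.

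Other genes differed between the members and those vessel barcodes. Clec4g was at 1082 and 1035 CPM in the latter against 2714 and 1414 CPM in members, and Cpe, a carboxypeptidase of vein endothelium, was at 66.0 and 53.7 CPM against 0 and 0.358 CPM. Stab2 was at 338.1 and 73.7 CPM against 1327 and 138.4 CPM. The 227 Maf LSEC-KO barcodes left out for a cycle gene alone lay between the members and the Vwf-negative barcodes for Vegfc and Jag1, with Vegfc at 114 CPM, Jag1 at 27.1 CPM and Vwf itself at 150.2 CPM.

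Markers of other cells were measured in members and partners. Platelet genes, which matter because megakaryocytes and platelets hold Vwf, summed to 103 CPM in control members against 14.0 CPM in their partners, but 44 of the 51 UMIs lay in 1 barcode and 14.1 CPM were left without it. Among Maf LSEC-KO barcodes they summed to 50.3 CPM in members and 34.1 CPM in Vwf-negative barcodes, with a UMI in 110 of 462 and 115 of 461 barcodes. Kupffer cell genes summed to 50.4 and 79.5 CPM in control and Maf LSEC-KO members, against 49.9 and 84.7 CPM in their partners. Hepatocyte genes summed to 163 and 66.9 CPM, against 149.7 and 106.3 CPM, stellate genes to 10.1 and 17.0 CPM, against 5.99 and 8.39 CPM, and neutrophil and monocyte genes to 36.3 and 42.1 CPM, against 5.99 and 37.7 CPM. Lymphocyte genes summed to 6.05 and 6.44 CPM, against 3.99 and 8.95 CPM, and erythroid genes to 16.1 and 12.4 CPM, against 49.9 and 15.7 CPM. Their part in the differences above was not tested.

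A few called genes rested on 1 barcode. In Maf LSEC-KO members 1 barcode held 99.1% of the 463 Acta2 UMIs and another 100% of the 290 Ccl21a UMIs, genes of smooth muscle and of lymphatic vessels. Spp1, a bile duct gene with a log2 ratio of -5.04 in that library, had 46.2% of its UMIs on the Vwf-negative side in 1 barcode, and cholangiocyte genes summed to 240.4 CPM there against 8.23 CPM in members.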

How the data were processed

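Deposited UMI counts, 1 matrix per library, were used as the authors' processing left them: per the labels Cell Ranger 6.0.2 and Seurat 5.0.1 were used with mm10, and the matrices hold whole counts for 32285 genes in barcodes with at least 500 UMIs. The authors' later subtraction of empty-droplet signal is not in these counts. Levels (CPM) are the summed UMIs of a set of barcodes, scaled to a total without 13 mitochondrial and 101 ribosomal protein genes. Ratios carry conditional exact intervals, levels Poisson and shares Clopper-Pearson intervals, all at 95%. Members were paired without replacement to Vwf-negative barcodes within 10% of their UMIs. A limit of 0 is 3 counts. Genes were called at 2-fold with at least 50 CPM on either side, leaving out the genes of the rule. Leukocyte barcodes held at least 3 UMIs of B cell, T cell, Kupffer cell or neutrophil markers and no UMI of Cdh5 or Ptprb. The latter limit also leaves out droplets with free RNA of these endothelial genes, so that the background may read too low.

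The members, gene lists and comparisons were chosen with earlier results of these data known. Genes named in the text were the members of 23 fixed lists, the 10 highest and lowest by ratio in each comparison, and the genes of the rule. Mbd4, Insr and Plac8 fall outside this and were chosen after their values were seen. No doublet caller was run: barcodes with Ptprc, Adgre1, Cd79a or Dcn were left out by the rule, and the deepest 5% and those with other cells' markers were left out as alternatives. With 1 library per genotype no test was run. Interval code was tested on simulated data. Python 3.11.15 (numpy 2.4.6, scipy 1.17.1, pandas 2.3.3, matplotlib 3.10.9) was used, with edgeR 4.0.16 in R 4.3.3 for a TMM scaling factor only.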

Additional observations from a re-analysis of the deposited data

Results flagged for a closer look

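Kdr, which encodes the VEGF receptor 2, had a log2 ratio of Vwf-positive to Vwf-negative barcodes of -0.22 (-0.32 to -0.12) in the control and of 0.05 (0.02 to 0.08) in the Maf LSEC-KO library. It stands here because both intervals exclude 0 on opposite sides. The difference between the libraries was not tested.

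Barcodes with endothelial genes but fewer than 1500 UMIs entered no comparison. A Vwf UMI was found in 10.9% (48 of 439) of them in the Maf LSEC-KO library and in 0.662% (2 of 302) in the control, at median depths of 712 and 1019.5 UMIs.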

How the results depend on the processing

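No paired analysis was possible because each genotype has 1 library and the labels give no replicate number. Among shares and counts, 67 alternative values stayed within their limits and 47 moved; the cause was not tested unless the alternative itself gives it (fewer barcodes, a lower threshold). The share of endothelial barcodes, 1.23% for the control and 11.4% for Maf LSEC-KO, was 0.116% and 5.90% with at least 2 Vwf UMIs, 0.0464% and 4.29% with at least 3, 3.46% and 26.7% with no limit on large-vessel and cycle genes, 0.436% and 5.48% after thinning and 0.487% and 5.15% with another seed. Genes past 2-fold between genotypes (285 higher, 250 lower) were 458 and 404 without barcodes holding other cells' markers, 629 and 425 from 20 CPM, 5525 and 1482 with no minimum, and 724 and 561 at 1.5-fold. Between control Vwf-positive and Vwf-negative barcodes (86, 30) they were 175 and 78 with no vessel and cycle limit, 323 and 180 without other cells' markers, 149 and 90 as a mean over barcodes, 356 and 191 from 20 CPM, 2005 and 1566 with no minimum, 335 and 240 at 1.5-fold, 38 and 10 unmatched, 38 and 7 with 20 partners per member (added after seeing the data), and 54 lower without the deepest 5%. In the Maf LSEC-KO library (18, 9) they were 34 and 29 with at least 2 Vwf UMIs, 37 and 34 with at least 3, 32 and 25 from 20 CPM, 1786 and 2340 with no minimum, 50 and 26 at 1.5-fold, 37 higher with no vessel and cycle limit and 27 lower without other cells' markers.

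Among named genes past 2-fold, log2 ratios that changed sign with no vessel and cycle limit were, between genotypes, Plvap (-0.20), Vcam1 (-0.071) and Edn1 (-0.995), in the control Enpp6 (-0.43), and in the Maf LSEC-KO library Ccl21a (-1.75) and Gas6 (0.17). Without other cells' markers they were Sox17 (-0.066) and Plac8 (-0.34) in the control, and Alb (0.35), Spp1 (0.64) and Acta2 (-0.041) in the knockout library, and Acta2 was also at -0.064 with at least 2 Vwf UMIs. Ratios under 2-fold also changed sign, among them, between genotypes, Adgrg6 (-0.56) and Igfbp5 (-0.95) with no vessel and cycle limit and Insr (0.38) with members matched on UMIs, and in the control, without other cells' markers, Msr1 (-0.29), Lgals1 (0.64) and Mt1 (0.48). Jag1 lay between 2.90 and 5.01 in the control and between 1.28 and 2.06 in the knockout library over all alternatives, and Vegfc between 3.04 and 4.53 and between 1.21 and 1.93. Comparisons that need control members with at least 2 or 3 Vwf UMIs were not run, since 5 and 2 such barcodes were left.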
